A study of Mus musculus with 2 samples.

Results

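Hypoxia-inducible HIF target genes are transcripts that cells induce when oxygen is scarce, and 10 of them were followed in sarcoma cells in which the circular RNA circCsnk1g3 was silenced. The members were chosen by symbol: Slc2a1, Vegfa, Egln1, Egln3, Bnip3, Ankrd37, Pdk1, Ndrg1, P4ha1 and Adm. Each matched 1 row among the 25509 genes of the count table, and all 10 were among the 12941 genes with enough reads to be compared. Of the 10 genes, 8 were lower in circCsnk1g3-silenced cells and 2, Vegfa and Ndrg1, were higher.

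The RNA came from soft-tissue sarcoma cells derived from C57BL/6 mesenchymal stem cells that lacked p53 and overexpressed Ccne1, the gene of cyclin E1, from a retrovirus. The cells had formed subcutaneous tumours in primary recipient mice, had then seeded the lungs of secondary recipients, and were recovered from lung foci and cultured. One library was made from cells carrying a lentiviral hairpin against circCsnk1g3 (shcircCsnk1g3) and 1 from cells carrying a control hairpin (shCTR), and both were sequenced as poly(A)-selected RNA. The loss of p53, the cyclin E1 transgene, the passage through mice, the lentiviral vector and puromycin selection were common to both libraries, so the hairpin was the only labelled difference. The stem cells had been kept in low oxygen before transformation, and the oxygen level at which the sequenced sarcoma cells were grown is not given in the sources used here.

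Each group was a single library, so no difference below has a replicate check and no p-value is given. For each gene the counts of both libraries are given, with the depth-scaled level (CPM) set by the trimmed mean of M values (TMM), and a log2 fold change of shcircCsnk1g3 over shCTR. The bracketed range is the exact 95% binomial interval of the ratio of the counts, and it covers counting error only. In bulk RNA, fewer cells that express a gene and less of its RNA per cell cannot be told apart. The libraries held 38792143 counts (shcircCsnk1g3) and 42709996 counts (shCTR), deep enough that a gene with 2000 counts in each had an interval of ±0.09 on the log2 scale and a gene with 200 counts in each one of ±0.29. Linear Csnk1g3, the host gene of the targeted circle, had 2159 and 2411 counts (log2 fold change -0.05, -0.14 to 0.03). Circular RNA lacks a poly(A) tail, so these counts do not check the depletion of circCsnk1g3. The nuclear-encoded mitochondrial leucyl-tRNA synthetase Lars2 and the ribosomal-repeat transcripts Gm42418 and AY036118 (Yam1) were higher in the silenced cells, with log2 fold changes of 1.79, 1.42 and 1.84, and together took 0.464% of counts against 0.142%. Their part in the differences below was not tested. Summed over 9 measured mesenchymal markers, such as Vim and Fn1, the level was 11230 CPM in shcircCsnk1g3 and 12320 CPM in shCTR, with 8 of the 9 lower, 6 of them with an interval below equality, and Col1a2 higher (median log2 fold change -0.10). Over all compared genes, 49.6% were lower and 28.2% had an interval below equality. Thy1, the remaining mesenchymal marker, had 0 and 1 counts. Markers of other lung cells summed to low levels: endothelial markers summed to 2.68 and 2.39 CPM with Kdr, Emcn and Cldn5 at 0, leukocyte markers to 4.39 and 6.98 CPM with Ptprc at 1 and 0 counts, and lung epithelial markers to 0.740 and 0.781 CPM with Sftpc, Sftpb, Scgb1a1 and Epcam at 0. Of the 3 leukocyte markers with enough reads to compare, Cd68 (87 and 155 counts) and Laptm5 (45 and 102 counts) were lower in the silenced cells. Coro1a (28 and 27 counts) was not, with an interval that included 0 (-0.66 to 0.98). The part of these markers in the differences below was not tested.

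Hypoxia-inducible factors (HIFs) are dimers of an oxygen-labile alpha subunit, such as HIF-1α (Hif1a) or HIF-2α (Epas1), and the stable partner ARNT. When oxygen is plentiful, prolyl hydroxylases mark the alpha subunit, and the von Hippel-Lindau protein (Vhl) then directs it to degradation. When oxygen falls, the dimer accumulates and binds hypoxia response elements, whose core reads RCGTG, near genes for angiogenesis, glucose use, mitophagy, collagen modification and its own hydroxylases. In sarcomas and other solid tumours these genes mark poorly perfused regions, although several of them also answer to other signals.

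Stretches of promoter sequence that hold a core are shown because the core is the feature these genes are known for. RefSeq promoter windows (GRCm38.p6) were found by symbol for 9 of the 10 members, 11 windows in all, and the 250 bases before each start were searched on both strands for ACGTG and GCGTG. The lines below run 5′ to 3′ on the strand of the gene, outside annotated exons, with cores in capitals; CACGT and CACGC are the same cores read from the opposite strand.
Slc2a1 (chr4:119108664-119108708, plus strand): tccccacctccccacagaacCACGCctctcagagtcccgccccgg
Egln1 (chr8:124949356-124949400, minus strand): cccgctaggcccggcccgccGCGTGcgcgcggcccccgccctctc
Egln3 (chr12:54204079-54204123, minus strand): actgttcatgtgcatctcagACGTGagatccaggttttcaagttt
Bnip3 (chr7:138909590-138909634, minus strand): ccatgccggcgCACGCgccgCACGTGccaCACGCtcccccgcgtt
Ankrd37 (chr8:46000067-46000100, minus strand): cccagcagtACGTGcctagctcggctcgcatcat
Pdk1 (chr2:71873126-71873170, plus strand): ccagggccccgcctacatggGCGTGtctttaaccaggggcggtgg
P4ha1 (chr10:59323260-59323295, plus strand): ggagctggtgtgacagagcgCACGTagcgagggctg
Adm (chr7:110627583-110627627, plus strand): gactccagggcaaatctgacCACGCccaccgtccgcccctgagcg
In Bnip3 the ACGTG cores of both strands overlap in CACGTG, which is also the E-box read by MYC and the bHLH repressors, with a GCGTG on either side of it.

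ACGTG lay in the searched bases of 7 of the 9 members with a window (77.8%), against 24.9% of 9587 compared genes with a window and 18.5% of all 27025 genes with one. GCGTG lay in 8 of 9 (88.9%), against 50.3% and 30.9%. Egln3 held ACGTG alone, whereas Pdk1 and Adm held GCGTG alone. The ACGTG of Egln1 (at -68) lay inside an annotated exon and that of Slc2a1 (at -36) ran into one. For these genes the lines above, kept outside exons, therefore show GCGTG only. The members' windows were also richer in G and C, at a median of 64.0%, than those of the compared genes (59.6%) and of all genes (52.4%), and CpG-containing motifs are more frequent in such sequence. The part of base composition in the shares of cores was not tested. Vegfa had 2 windows, as did Pdk1, whose second window held neither core. The outermost Vegfa window, at chr17:46032328-46032627 on the minus strand, held neither core. The inner one, at chr17:46025114-46025413, held GCGTG at -218 and ACGTG at -211 from its start, inside the annotated exons of the longer transcript. The Ankrd37 window likewise lay inside the annotated span of its gene (chr8:45996902-46005707), although the stretch printed above is outside annotated exons. A match of these letters is a description of the sequence and not a binding site, and elements outside the windows were not searched.

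**Figure D1:**
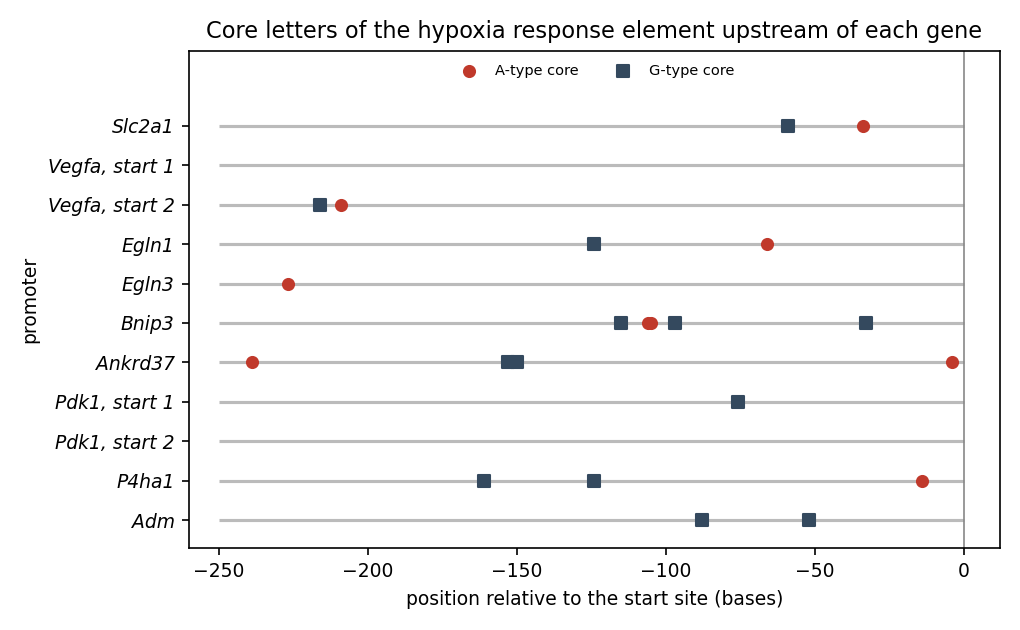
Position of each core in the searched promoter bases of the members, as the distance in bases of its middle base from the annotated start (horizontal axis). Rows are windows by gene, with Vegfa and Pdk1 on 2 rows each; A-type cores are ACGTG and G-type cores GCGTG on either strand. Bnip3 carries 4 of its 5 cores within a short cluster, and the outermost Vegfa window (start 1) has no core.

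In control cells the members spanned an abundance range from Slc2a1 at 84.1 CPM per kb of exon to Adm at 3.99 CPM per kb, a scale that allows levels of genes of different length to be set side by side. The length was that of all annotated exons merged, which can differ from the transcript expressed. The Poisson intervals below cover counting error only, so the order between genes holds only for these lengths. The order in shCTR was Slc2a1, Bnip3, Vegfa, P4ha1, Ndrg1, Egln3, Egln1, Pdk1, Ankrd37 and Adm. Vegfa (48.9 CPM per kb, 95% Poisson interval 47.9 to 49.9) and P4ha1 (48.3 CPM per kb, 47.3 to 49.3) could not be told apart in that order, nor could Ankrd37 (4.43 CPM per kb, 3.93 to 4.97) and Adm (3.99 CPM per kb, 3.53 to 4.49). In shcircCsnk1g3, Vegfa stood second at 69.8 CPM per kb (68.6 to 71.1), above Bnip3 at 42.8 CPM per kb (41.5 to 44.2). Egln3 and Egln1, separated in the control at 21.3 and 17.3 CPM per kb, were level in the silenced cells at 14.9 CPM per kb each, with intervals of 14.2 to 15.7 and 14.2 to 15.5. The rest of the order was the same in both libraries.

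**Figure D2:**
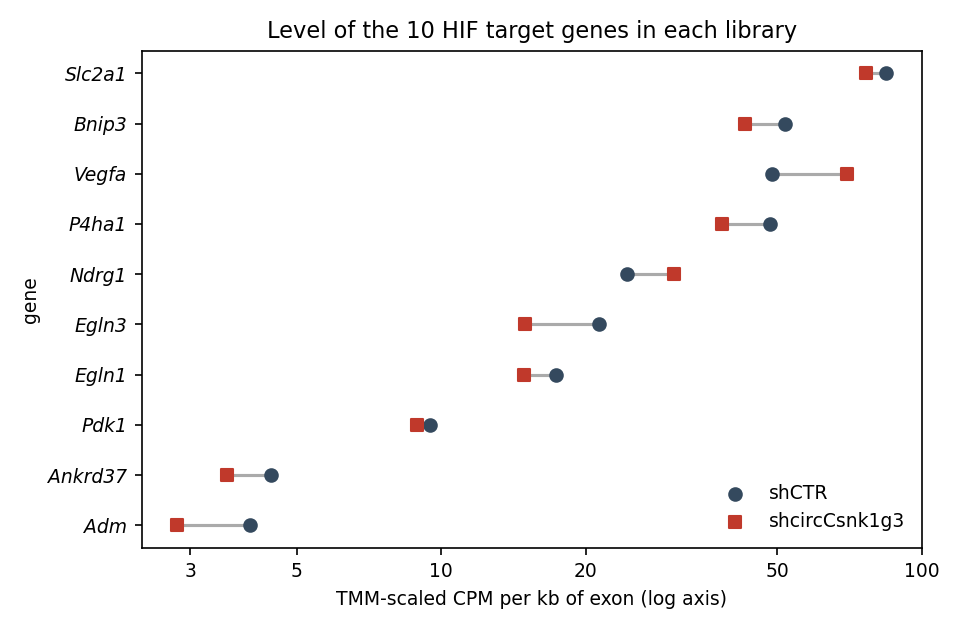
Level of the 10 genes as TMM-scaled CPM per kb of exon (log axis) in shCTR (circles) and shcircCsnk1g3 (squares), 1 library each, sorted by the control level. Vegfa and Ndrg1 have the square to the right of the circle and the other 8 genes have it to the left, and the squares of Egln3 and Egln1 coincide at 14.9 CPM per kb.

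The angiogenic ligands of the set moved apart. Vegfa (ENSMUSG00000023951, chr17:46016993-46032369), the main mitogen of endothelial cells, had 11736 counts (299.3 CPM) in shcircCsnk1g3 and 8847 (209.4 CPM) in shCTR. Its log2 fold change was 0.52 (0.48 to 0.55), which ranked 292nd from the top among the 10662 genes with at least 200 counts over both libraries. Adm (ENSMUSG00000030790, chr7:110627661-110629820), which encodes the vasodilator peptide adrenomedullin, had 179 counts (4.57 CPM) against 273 (6.46 CPM), a log2 fold change of -0.50 (-0.78 to -0.22). Adm had the fewest counts of the 10 in both libraries and the widest interval. Its value lay inside the span between the 10th and 90th percentile of genes of like abundance (-0.64 to 0.48). Within each library, where scaling cancels, there were 65.6 Vegfa counts for each Adm count in shcircCsnk1g3 and 32.4 in shCTR, a 2.02-fold difference (Wald 95% interval 1.67 to 2.45). This and the other count ratios below were chosen after the values were seen.

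Both oxygen-sensing prolyl hydroxylases were lower. Egln3 (ENSMUSG00000035105, chr12:54178981-54203860), which encodes PHD3, had 1556 counts (39.7 CPM) in shcircCsnk1g3 and 2397 (56.7 CPM) in shCTR, for a log2 fold change of -0.52 (-0.61 to -0.42). This was the lowest point value of the 10, although the interval of Adm (-0.78 to -0.22) contained it. Among genes with at least 200 counts, 3.995% had a lower value than Egln3. Egln1 (ENSMUSG00000031987, chr8:124908587-124949324), which encodes PHD2, the main hydroxylase of HIF-1α in most cells, had 2096 counts (53.5 CPM) against 2629 (62.2 CPM), a log2 fold change of -0.22 (-0.30 to -0.14). The decrease was larger for Egln3: there were 0.742 Egln3 counts per Egln1 count in shcircCsnk1g3 and 0.912 in shCTR, a ratio of 0.814 (0.747 to 0.887). Egln2, the third family member and not a typical hypoxia-inducible one, had 1856 and 1957 counts (log2 fold change 0.03, -0.06 to 0.12). The count ratio of Vegfa to Egln3 was 7.54 in shcircCsnk1g3 and 3.69 in shCTR, a 2.04-fold difference (1.91 to 2.19).

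Glucose uptake and pyruvate control showed the smallest differences. Slc2a1 (ENSMUSG00000028645, chr4:119108711-119137983), the glucose transporter GLUT1, had 10548 counts (269.0 CPM) in shcircCsnk1g3 and 12455 (295 CPM) in shCTR, for a log2 fold change of -0.13 (-0.17 to -0.10). Pdk1 (ENSMUSG00000006494, chr2:71873224-71903858), the kinase that inactivates pyruvate dehydrogenase, had 2722 counts (69.4 CPM) against 3118 (73.8 CPM), a log2 fold change of -0.09 (-0.16 to -0.01). With total counts in place of TMM scaling, the value for Pdk1 was -0.06 and its interval included 0 (-0.13 to 0.02), and after centring by GC content and length it was -0.05. Both values lay inside the span between the 10th and 90th percentile of genes of like abundance. The count ratio of Slc2a1 to Pdk1 was 3.875 and 3.995, with an interval for the change (0.916 to 1.03) that included 1. The glycolytic enzymes, with Slc2a3 counted among them, were lower for 13 of 14 genes (median log2 fold change -0.22), beside 49.6% of all compared genes, with Slc2a3 at 0.09 (1401 and 1420 counts) and Aldoc at -0.40 (29 and 42 counts) as the extremes. The intervals of both included 0 (-0.02 to 0.20 for Slc2a3 and -1.16 to 0.29 for Aldoc).

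The mitophagy receptor and the collagen hydroxylase were lower by similar amounts. Bnip3 (ENSMUSG00000078566, chr7:138890836-138909519), which recruits autophagosomes to mitochondria, had 3802 counts (97.0 CPM) in shcircCsnk1g3 and 4960 (117 CPM) in shCTR, for a log2 fold change of -0.28 (-0.34 to -0.21). P4ha1 (ENSMUSG00000019916, chr10:59323296-59373304), the catalytic subunit of collagen prolyl 4-hydroxylase, had 6181 counts (158 CPM) against 8394 (199 CPM), a log2 fold change of -0.33 (-0.38 to -0.29). Their count ratio was 0.615 and 0.591, and the interval of its change (0.987 to 1.10) included 1. Against P4hb, the partner subunit of P4ha1 with 49405 and 64003 counts, P4ha1 was 0.125 and 0.131 counts per count, a ratio of 0.954 (0.921 to 0.988).

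Of the remaining pair, Ndrg1 sided with Vegfa and Ankrd37 with the majority. Ndrg1 (ENSMUSG00000005125, chr15:66929318-66969640), a stress-responsive gene studied as a suppressor of metastasis, had 7874 counts (201 CPM) in shcircCsnk1g3 and 6784 (161 CPM) in shCTR, for a log2 fold change of 0.32 (0.28 to 0.37). Ankrd37 (ENSMUSG00000050914, chr8:45996902-46005707), a small ankyrin-repeat protein, had 216 counts (5.51 CPM) against 288 (6.82 CPM), a log2 fold change of -0.31 (-0.57 to -0.05). The count ratio of Ndrg1 to Bnip3 was 2.07 in shcircCsnk1g3 and 1.37 in shCTR, a 1.51-fold difference (1.44 to 1.60). The higher pair also differed from each other: Vegfa counts were 1.49 and 1.30 times those of Ndrg1, a ratio of 1.14 (1.10 to 1.19). Whether counting used strand is not stated for these files, and Slc2a1, Bnip3, Ankrd37 and Ndrg1 share exon bases with genes on the opposite strand. For Ankrd37 these are Ufsp2 (57 shared bases, 2317 and 2391 counts) and Lrp2bp (349 bases, 16 and 12 counts), and without strand their reads cannot be told apart.

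**Figure D3:**
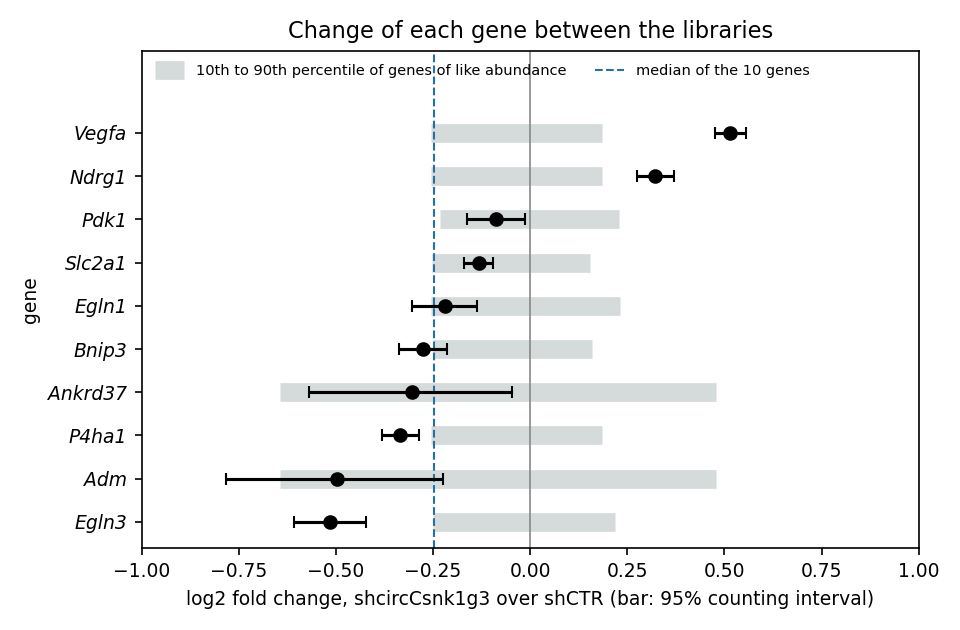
Log2 fold change of each gene, shcircCsnk1g3 over shCTR (horizontal axis), with bars for the 95% counting interval and grey bands for the 10th to 90th percentile of genes of like abundance. Vegfa at 0.52 and Ndrg1 at 0.32 lie right of their bands, while Egln3 at -0.52, P4ha1 at -0.33 and Bnip3 at -0.28 lie left of theirs; the dashed line is the median of the 10 genes, -0.25.

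Read against all genes, the differences were moderate. The median log2 fold change of the 10 members was -0.25, beside 0.00 over all 12941 compared genes. The 8 lower members were 80.0% of the set, where 49.6% of all compared genes were lower at all. An interval wholly below equality was found for these 8 members and for 28.2% of all genes, and one wholly above it for Vegfa and Ndrg1 and for 26.9% of all genes. No member reached 2-fold in either direction, which 2.13% of all genes did upward and 2.55% downward. All 10 members had at least 200 counts over both libraries, and among the 10662 such genes these shares were 0.563% and 0.741%. At a lesser cut, 2 members (Vegfa and Ndrg1) were at least 25% higher, against 12.3% of all genes, and 3 (Egln3, Adm and P4ha1) at least 20% lower, against 13.1%. Among genes with at least 200 counts, the shares at that cut were 7.79% and 9.06%, and those with an interval wholly above or below equality were 29.5% and 31.0%. Ndrg1 stood at the edge of that cut. Summed over the members, the level hardly moved, at 1196 CPM in shcircCsnk1g3 and 1187 CPM in shCTR, since the 8 lower genes (696 and 817 CPM) and the 2 higher genes (500.1 and 370.0 CPM) offset each other. Vegfa made up 25.02% of all member counts in shcircCsnk1g3 and 17.64% in shCTR.

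**Figure D4:**
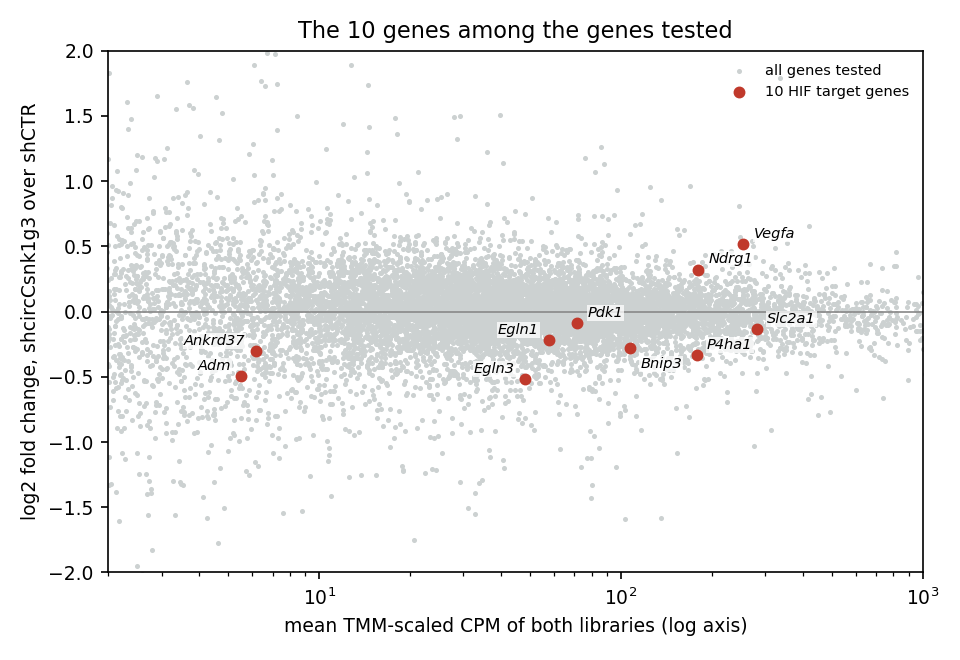
Log2 fold change, shcircCsnk1g3 over shCTR (vertical axis), against the mean TMM-scaled CPM of both libraries (log axis) for the compared genes in the plotted range, with the 10 members labelled. Vegfa and Ndrg1 sit at the upper edge of the cloud for their abundance, and Egln3 and P4ha1 near its lower edge.

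Among the 16 measured HIF subunits and regulators, no gene differed as much as Vegfa or Egln3; Hif3a, with 0 and 1 counts, was too low to compare. Hif1a had 15224 counts in shcircCsnk1g3 and 14367 in shCTR, for a log2 fold change of 0.19 (0.16 to 0.22), and its partner Arnt had 3421 and 3390, a log2 fold change of 0.12 (0.05 to 0.19). Epas1 was far less abundant, with 289 and 348 counts and an interval that included 0 (-0.16, -0.39 to 0.07). Hif1an, the asparaginyl hydroxylase that limits HIF activity, had 1878 and 1970 counts (0.04, -0.05 to 0.13). Vhl, with 813 and 1068 counts, was the lowest of the machinery genes at -0.29 (-0.42 to -0.15), and Siah1a, a ubiquitin ligase for the hydroxylases, was the highest at 0.27 (0.13 to 0.41; 899 and 801 counts). Over the 16 measured genes of the HIF machinery, the median was 0.08, with 11 genes higher and 5 lower, beside 49.6% of all compared genes lower. Intervals lay above equality for 8 of the 16 (26.9% of all genes) and below it for 4 (28.2%), and 4 included it. Messenger RNA levels do not report the stability of HIF-1α protein, which was not measured here.

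Other known HIF targets were grouped by function, and the groups did not move as one. Across the 63 measured genes, 23 were higher and 40 lower (median log2 fold change -0.13), with 18 intervals above equality, 33 below it and 12 that included it. The counterparts over all compared genes were 26.9% above and 28.2% below. At 2-fold, 2 of the 63 were higher and 3 lower, beside the 2.13% and 2.55% of all genes. The matrix-modifying targets, such as lysyl oxidases and collagen hydroxylases, were lower for 6 of 7 genes (median -0.18), beside 49.6% of all compared genes, from Loxl2 at -1.19 (2306 and 5673 counts) to Loxl4 at 0.19 (2570 and 2426 counts). The mitochondrial targets were lower for 4 of 6 genes (median -0.12) against that same share, from Fam162a at -0.26 (2735 and 3537 counts) to the protease Lonp1 at 0.13 (6794 and 6709 counts).

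The vascular targets split most widely. Of the 10 measured genes, 6 were higher and 4 lower, with 6 intervals above equality (26.9% of all genes) and 4 below it (28.2%; median 0.07, but -0.09 over genes with at least 200 counts). Nos2, inducible nitric oxide synthase, stood at 1.40 (133 and 53 counts), and the chemokine Cxcl12 at -1.51 (632 and 1939 counts). Pgf, a ligand of the same family as Vegfa, had 1276 and 1843 counts, and Vegfa counts were 9.20 times those of Pgf in shcircCsnk1g3 and 4.80 times in shCTR, a 1.92-fold difference (1.78 to 2.07). In the acid and lactate group, 2 of 6 genes were higher and 4 lower (median -0.01, and 0.02 without TMM scaling), beside 49.6% of all compared genes lower. Intervals lay above equality for 2 genes (26.9% of all genes) and below it for 1 (28.2%), and 3 included it. The group ran from the carbonic anhydrase Car12 at -1.50 (98 and 303 counts) to the lactate exporter Slc16a3 at 0.69 (325 and 217 counts). Of 13 metabolic and stress targets, 7 were higher and 6 lower (median 0.14), beside 49.6% of all compared genes lower. They lay between Ak4 at -0.25 (2005 and 2578 counts) and the lipoprotein receptor Vldlr at 0.87 (2562 and 1510 counts). Of 7 transcriptional feedback and chromatin targets, 4 were higher and 3 lower, beside that same share (median 0.04, and -0.005 after centring by GC content and length). They lay between the histone demethylase Kdm3a at -0.17 (2111 and 2566 counts) and Zfp395 at 0.25 (1550 and 1400 counts).

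**Figure D5:**
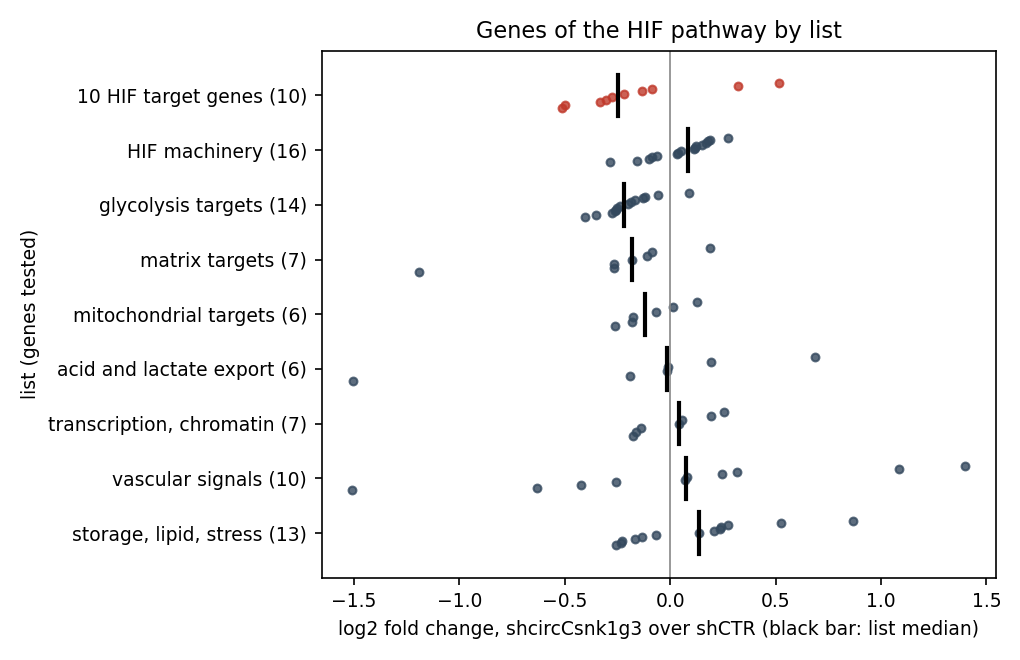
Log2 fold change of every measured gene (points) of the 10 members, the HIF machinery and the other HIF target groups, with a bar at each group's median. The members have a median of -0.25 and the HIF machinery 0.08, and the vascular group is the most spread, from -1.51 to 1.40.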

How the data were processed

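RNA-seq was analysed for 1 shcircCsnk1g3 and 1 shCTR library of mouse sarcoma cells. The authors aligned reads with STAR and deposited gene-level estimated counts from RSEM, summed per Ensembl gene; the GENCODE release and the strand setting are not given in the sources used here. They also deposited a TMM-normalized table of 11624 genes, a signal that equals the counts times a constant for each library and that served as an alternative scale. The estimated counts were used as deposited, after 92 spike-in rows, all at 0, were left out.

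TMM factors (1.01 and 0.989) came from edgeR 4.0.16 in R 4.3.3, and size factors for an alternative from DESeq2 1.42.0. Genes with at least 10 counts in either library were compared. Python 3.11.15, pandas 2.3.3, numpy 2.4.6, scipy 1.17.1 and matplotlib 3.10.9 gave the log2 fold changes, the exact (Clopper-Pearson) 95% intervals and the figures. The log2 fold changes used a prior count of 2, scaled to library size by the edgeR formula. A replicated test was not possible with 1 library per arm, so none was run. The scripts were tested on simulated data. Gene positions and exon lengths are from GENCODE M21 (GRCm38), in which 25251 of 25509 IDs were found, and promoters from RefSeq.

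The members and lists were chosen with earlier results of these data known. Named were the 10 members; Hif1a, Epas1, Arnt, Vhl, Egln2 and Hif1an; the highest and lowest gene of each other list among those with at least 50 summed counts; Gm42418, Yam1 and Lars2; and marker genes at or below 3 counts. Other genes, among them Pgf, P4hb, Cd68, Laptm5 and Coro1a, were named after their values were seen.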

Additional observations from a re-analysis of the deposited data

How the results depend on the processing

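Of 225 recomputed values, 80 were of members, and none of these changed sign. Of all 225, 218 kept within the spread allowed for them. A member value had to stay in its main counting interval, and a group median within the typical half-width of its genes' intervals. A count could change by a set ratio. The medians of the acid and lactate, vascular, and transcriptional feedback groups changed sign under some settings. With DESeq2 size factors, total counts with or without 3 abundant transcripts, the deposited TMM-scaled values, other prior counts (0.5 or 10) and the centrings, all 10 members kept their direction, and their median stayed between -0.250 and -0.212. The centrings, by mean expression and by GC content and length, were added after the data were seen. Slc2a1 moved to -0.091 after centring by mean expression, and Pdk1 ranged from -0.090 to -0.050. The glycolytic median was -0.187 with total counts, -0.182 with total counts without 3 abundant transcripts and -0.179 after centring by mean expression, and the vascular median was -0.094 at 200 or more summed counts. No member reached 2-fold, while at the lesser cut (25% higher or 20% lower) 2 were higher and 3 lower. Intervals below equality numbered 8 by the main scaling, 7 with total counts (Pdk1 lost) and 6 at the 99% level (Pdk1 and Ankrd37 lost). Total counts moved the median of all genes by no more than 0.038. The cause of each of these shifts was not tested, since none has a replicate.

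No paired analysis was possible because each arm held a single library, and leaving out a replicate was likewise not possible. Counting precision limits Adm and Ankrd37 most, and the spread between cultures is unknown for every gene.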

Other observations

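Several of the genes described above encode enzymes of 1 family, the oxygen- and 2-oxoglutarate-dependent dioxygenases, which use molecular oxygen to hydroxylate proteins or demethylate histones. This grouping was made after the values were seen, and it shares Egln1, Egln3 and P4ha1 with the members. Of 12 such enzymes (Egln1, Egln2, Egln3, Hif1an, P4ha1, P4ha2, Plod1, Plod2, Kdm3a, Kdm4b, Kdm4c and Jmjd6), 8 were lower in circCsnk1g3-silenced cells, all 8 with an interval below equality, and 0 had an interval above it. Over all compared genes, 49.6% were lower, 28.2% had an interval below equality and 26.9% one above it, and a group assembled in this way is a description only. Their log2 fold changes ran from -0.52 for Egln3 to 0.06 for Kdm4c, with a median of -0.17. Plod2, a lysyl hydroxylase of collagen, had 4459 and 5768 counts (-0.26, -0.32 to -0.21), and Jmjd6 had 2377 and 2861 counts (-0.16, -0.24 to -0.08).

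Among metabolic targets, Ero1l, the oxidase that helps proteins form disulfide bonds in the endoplasmic reticulum, resembled Vegfa in size and direction, with 16394 and 12256 counts and a log2 fold change of 0.53 (0.49 to 0.56). It was named after its value was seen.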
